A study of Mus musculus with 42 samples.

Results

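The Obox genes code for homeobox proteins of the oocyte and the early mouse embryo, and Crxos is a homeobox gene that lies beside them. Of the 15737 genes in the deposited expression table, 7 were followed here, namely Obox1, Obox2, Obox3, Obox5, Obox6, Obox7 and Crxos. They were taken by these symbols, and Obox8 and the rows with pseudogene symbols are described after them. All 7 are annotated as protein coding on chromosome 7 of GRCm38. Of the 7, Obox7 comes first along the chromosome (14659496 to 14665996, plus strand). Obox2 (15388721 to 15398545, plus), Obox1 (15388948 to 15556866, plus) and Obox3 (15479825 to 15639902, minus) follow it, and their annotated spans overlap. Obox5 (15750131 to 15759800, plus), Obox6 (15833241 to 15839678, minus) and Crxos (15882617 to 15904020, plus) come last. Crx, the homeobox gene for which Crxos is named, lies between Obox6 and Crxos on the minus strand (15865947 to 15879968).

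The study asked how the synthesis of NAD+, a cofactor of histone deacetylases of the sirtuin family, affects zygotic gene activation in mouse embryos. All embryos were ICR, and every RNA library was made from 3 pooled embryos, with 2 libraries in each of 9 groups by the labels. Early 2-cell embryos were taken at 34 h after injection of hCG, the hormone that triggers ovulation, and their labels name no inhibitor. Late 2-cell embryos were taken at 48 h as control, with 0.01 µM FK866 (an inhibitor of NAMPT, the enzyme that makes NMN), with FK866 and 10 µM NMN (the NAD+ precursor that NAMPT makes), with 10 nM TSA (trichostatin A, an inhibitor of histone deacetylases), or after Sirt1 knockdown. The 4-cell embryos were taken at 58 h as control, with FK866, or with FK866 and NMN, at the same doses. Controls of the inhibitors received 0.05% DMSO. The knockdown was made by injecting Sirt1 siRNA, Trim21 mRNA and a SIRT1 antibody into zygotes, with scrambled siRNA and Trim21 mRNA in the controls. The knockdown and the inhibitor groups share 1 late 2-cell control column in the table.

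Homeobox proteins bind short DNA sequences through a folded domain of helices and switch target genes on or off. The Obox family is known for its expression in oocytes and cleavage embryos. Obox1, Obox2, Obox5 and Obox7 transcripts are known as maternal, which means that the oocyte makes and stores them, and much stored RNA is degraded around the 2-cell stage. Obox3 and Obox6 are known as genes that the embryo itself switches on, and OBOX proteins are known to take part in zygotic gene activation, when the embryo's genome starts to be transcribed.

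The RefSeq promoter table of GRCm38 held 6 of the 7 genes (none for Obox6), each as 250 bases before and 50 after a start site. The sequences shown next are those by which these promoters could be compared. The letters TATATAA, which resemble a TATA box, were in the windows of Obox1, Obox3, Obox5 and Obox7, on either strand. Of all 32851 promoter windows, 3.24% held them. In the next 5 lines, stretches of 30 bases around these letters are given from 5′ to 3′ on the strand of the gene, with TATATAA in capitals.
Obox5, chr7:15750328-15750357, plus: gtttgcagagaTATATAAgggcaggtcttc
Obox1, chr7:15547227-15547256, plus: gtttgcagagaTATATAAgggcaggtcttc
Obox7, chr7:14659692-14659721, plus: gtttgcagagaTATATAAgggcaggtcttc
Obox2, chr7:15388918-15388947, plus: gtttgcagagaTATATAAgggcaggtcttc
Obox3, chr7:15639789-15639818, minus: gtttggagagaTATATAAgggcaggtcttc
The stretches of Obox5, Obox1, Obox7 and Obox2 were identical. That of Obox3 differed from them by C6G, counted from 1 at the 5′ end of the stretch. The capitals began 31 bases before the RefSeq start of Obox5, 30 before that of Obox3, 19 before that of Obox1 and 5 before that of Obox7. In Obox2 they lay 78 bases after the start, outside the promoter window.

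The longest run shared by the windows of Obox1, Obox2, Obox5 and Obox7 had 44 bases. At least 12 of them in a row were also in the Obox3 window. The run shown next was picked for its absence from that window, so this absence is not a result. It had 37 bases, of which no 12 in a row occurred in the Obox3 window. The first 30 of these bases, in capitals because they are identical in all 4, are given once.
Obox7, chr7:14659583-14659612, plus: TTTTACATTCTGTCAGGAACTTTCAGAGCA
The same letters lay on the plus strand at chr7:15388809-15388838 (Obox2), chr7:15547118-15547147 (Obox1) and chr7:15750219-15750248 (Obox5). They were found in 4 promoter windows of the table, those of these 4 genes. The letters TAATCC, or GGATTA on the other strand, which the related proteins CRX and OTX2 are known to bind, were in 7.06% of all windows. Among the members they were only in that of Obox3, shown with the letters in capitals.
Obox3, chr7:15639927-15639956, minus: aaagaaagaaaGGATTAcaaaggaaaaaaa
A match of letters is a description and not a binding site.

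The table gives FPKM, a read count scaled to transcript length and library size, in 1 column per group. The steps of 1 read in these values showed that 7 columns are sums of 2 libraries and that 2 columns hold 1 library each, those headed 4-cell FK866 and FK866+NMN. All levels here are therefore FPKM per library. In each summed column, A is the library with more reads and B the other. The 16 libraries held 3169677 to 10003481 reads. The libraries of late 2-cell FK866+NMN stood apart, since 39.6% of their genes at 5 FPKM or more differed over 4-fold between A and B, against 1.71% to 11.2% in the other 6 columns with 2 libraries. Markers of other cell types were checked by their summed FPKM per library. It was 0.0999 to 32.4 for 8 genes of granulosa and cumulus cells, 0.308 to 39.9 for 4 blood genes except for 212 in the column headed 4-cell FK866, and at most 0.621 per column for Gapdhs, the sperm gene of the table.

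The headers of 5 columns go against the supplementary tables of the study. Values listed there for 84 genes of the 4-cell control, FK866 and FK866+NMN embryos equalled the columns headed late 2-cell TSA, late 2-cell Sirt1 and 4-cell control, for all 84 genes in each. The directions listed for TSA were those of the column headed 4-cell FK866 against late 2-cell control in 1203 of 1203 genes, and those of the column headed TSA in 546. The directions listed for the knockdown were met by the column headed 4-cell FK866+NMN in 773 of 821 genes and by that headed Sirt1 in 442. Other columns also met many of these directions. The early 2-cell column met 1096 of those for TSA, and the late 2-cell FK866 column 703 of those for the knockdown. Directions thus mark a column less sharply than equal values do. Both readings give the same group for early 2-cell and, at late 2-cell, for control, FK866 and FK866+NMN. Comparisons of the members that use the other 5 columns are given by the header and then by the tables. Levels, orders, shares and sums in these 5 columns are given under their headers only, which does not settle the group. By the tables, TSA and the knockdown are the columns with 1 library.

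Obox1 was the highest member in early 2-cell embryos, at 1495 FPKM per library. Its libraries there could not be told apart, since 4 splits into whole reads gave the deposited value, with single libraries from 660 to 2330 FPKM. It stood at 325 and 296 FPKM (library A, then B) in late 2-cell control, 334 and 255 with FK866, and 1013 and 192 with FK866+NMN. In the columns headed TSA, Sirt1 and 4-cell control it was at 2.46 and 0.887, 7.89 and 19.3, and 15.3 and 10.2 FPKM. The single libraries headed 4-cell FK866 and 4-cell FK866+NMN had 211 and 140 FPKM. All libraries of the 3 columns headed TSA, Sirt1 and 4-cell control thus lay far under all others.

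Obox2 followed Obox1. It stood at 680 FPKM per library in early 2-cell embryos (3 splits, 40.8 to 1319 FPKM), 138 and 137 in late 2-cell control, 169 and 180 with FK866, and 284 and 115 with FK866+NMN. Its levels were 3.10 and 3.72, 4.07 and 11.9, and 11.0 and 3.80 FPKM in the columns headed TSA, Sirt1 and 4-cell control, and 133 and 73.2 FPKM in the single libraries headed 4-cell FK866 and FK866+NMN. Obox1 and Obox2 share sequence: 42.3% of the 100-base stretches of Obox1 transcripts were also in Obox2 and 47.2% the other way round. How reads that fit both genes were counted is not given in the sources used here, so how their reads divide between the pair is uncertain. Of 50-base stretches, 57.4% of Obox1 and 65.15% of Obox2 were also in another gene. For Obox3, Obox5, Obox7 and Crxos it was 18.1% to 21.1%, and for Obox6 5.02%.

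Obox5 was the highest member in late 2-cell control, at 845 and 635 FPKM, and also led with FK866 (826 and 651) and FK866+NMN (1020 per library, 2 splits, 756 to 1283). It was at 831 FPKM per library in early 2-cell embryos (4 splits, 274 to 1388). The columns headed TSA, Sirt1 and 4-cell control had 6.21 and 1.58, 9.36 and 17.4, and 55.8 and 29.7 FPKM, and the single libraries headed 4-cell FK866 and FK866+NMN had 235 and 532. Its libraries in the 3 low columns were again under all others. Obox7 was the lowest of the maternal genes from the late 2-cell stage on. It stood at 439 and 523 FPKM in early 2-cell embryos, 32.2 and 42.9 in late 2-cell control, 38.0 and 47.4 with FK866, and 143 and 5.72 with FK866+NMN. In the column headed TSA, Obox7 had 0 reads in A, which allows up to 0.273 FPKM, and 1 read in B. In that headed Sirt1 it had 0 reads in A (up to 0.187 FPKM) and 8 reads or 1.58 FPKM in B, and in that headed 4-cell control it had 44 reads or 5.02 FPKM in A and 0 reads (up to 0.403 FPKM) in B. These limits, set at 3 reads, cover counting error only. The single libraries headed 4-cell FK866 and FK866+NMN had 5.47 and 22.1 FPKM of Obox7.

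Obox6 went the other way. It was nearly absent from early 2-cell embryos, with 0 reads in A (up to 0.396 FPKM) and 4.97 FPKM in B, and stood at 185 and 145 FPKM in late 2-cell control, 353 and 249 with FK866, and 125 and 238 with FK866+NMN. It was highest in the columns headed TSA (302 and 443), Sirt1 (672 and 400) and 4-cell control (635 and 477). The single library headed 4-cell FK866 had 5.08 FPKM and that headed 4-cell FK866+NMN had 334, so the low values of Obox6 were in early 2-cell embryos and in 1 later library.

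Crxos was also low in early 2-cell embryos, at 2.40 and 0.656 FPKM. It was at 90.0 and 81.3 in late 2-cell control, 65.7 and 20.3 with FK866, and 5.87 and 85.2 with FK866+NMN. The columns headed TSA, Sirt1 and 4-cell control had 251 and 220, 127 and 361, and 106 and 184 FPKM, and the single libraries headed 4-cell FK866 and FK866+NMN had 28.1 and 52.6. Obox3 peaked at the late 2-cell stage. It stood at 8.61 and 2.43 FPKM in early 2-cell embryos, 101 and 79.8 in late 2-cell control, 47.6 and 123 with FK866, and 16.3 and 133 with FK866+NMN. The columns headed TSA, Sirt1 and 4-cell control had 2.83 and 3.46, 13.9 and 2.67, and 18.7 and 8.64 FPKM of Obox3, and the single libraries headed 4-cell FK866 and FK866+NMN had 11.2 and 38.0. Of the 100-base stretches of Obox3 transcripts, 8.89% were also in other genes, mainly in Obox3-ps3.

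**Figure D1:**
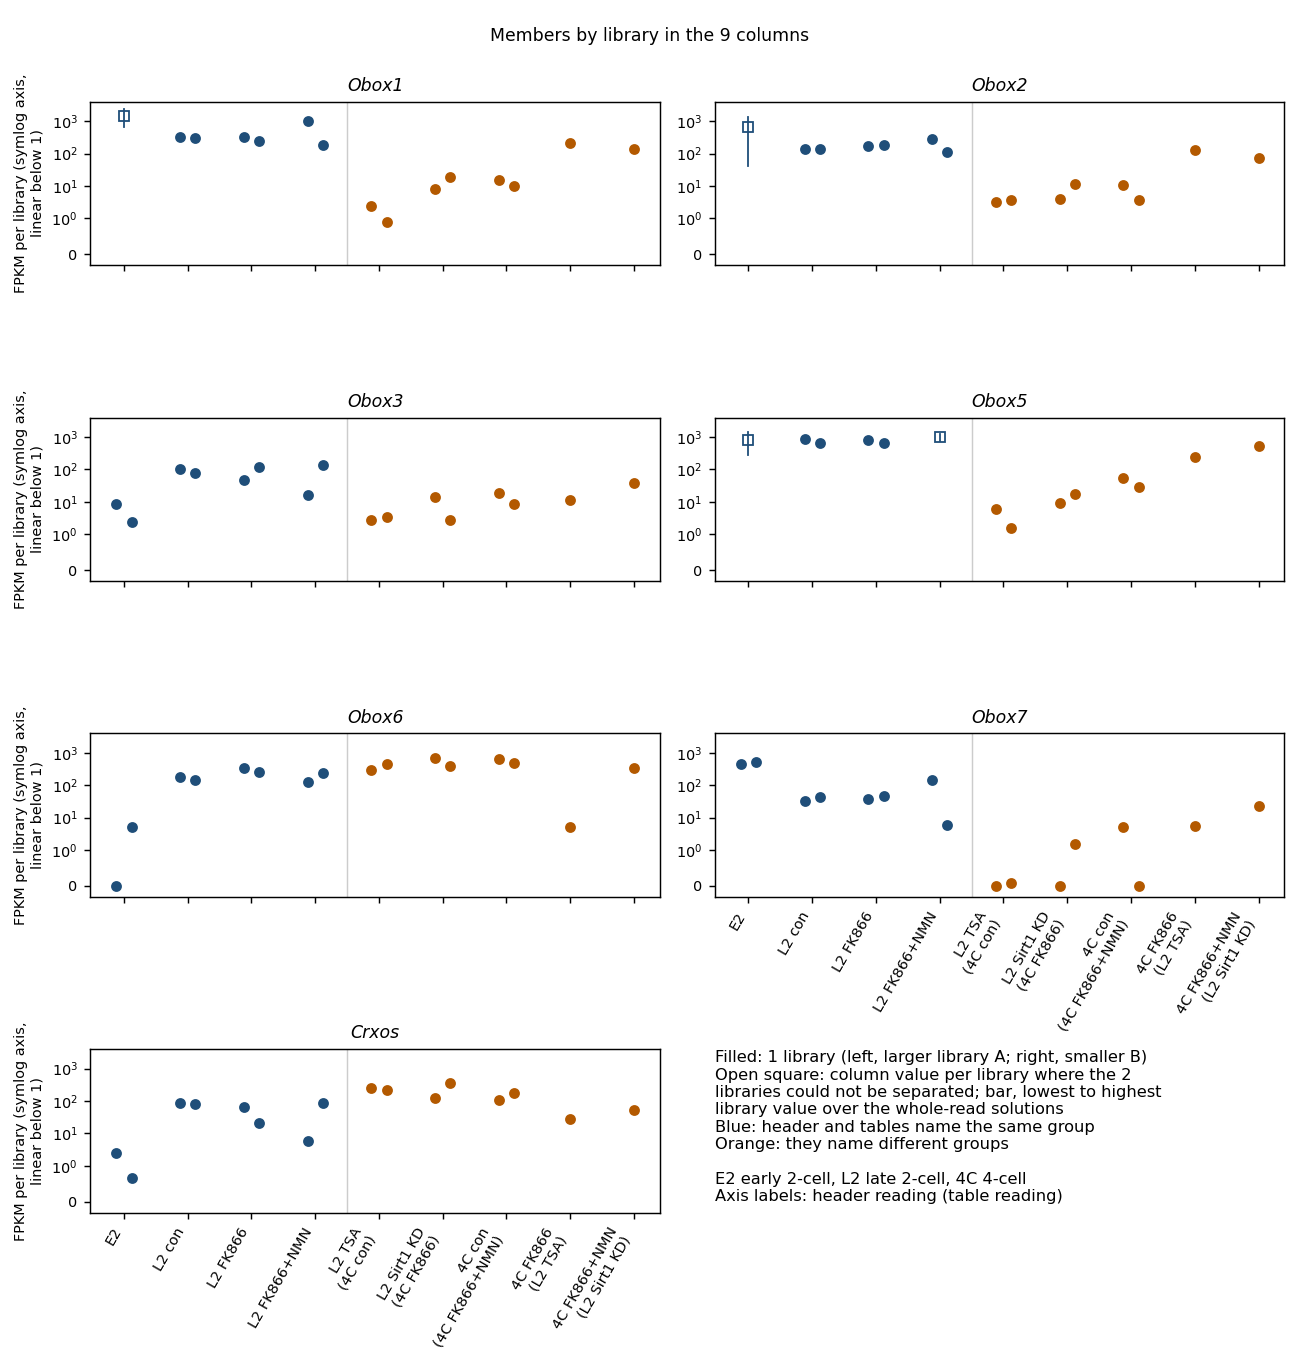
Level of each of the 7 genes in FPKM per library (vertical axis, logarithmic above 1 and linear below) in the 9 columns, with filled points for single libraries, open squares for columns whose libraries could not be told apart, bars for the lowest and highest value over the splits into whole reads, and orange for columns that header and tables name differently. Obox1, Obox2, Obox5 and Obox7 are high on the left and low in the columns headed L2 TSA, L2 Sirt1 KD and 4C con, where Obox6 and Crxos are high (E2, early 2-cell; L2, late 2-cell; 4C, 4-cell).

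The order of the members changed between columns. In early 2-cell embryos it ran Obox1, Obox5, Obox2, Obox7, Obox3, Obox6 and Crxos, and in late 2-cell control Obox5, Obox1, Obox6, Obox2, Obox3, Crxos and Obox7. In late 2-cell control the libraries of Obox6 and Obox2 did not overlap (185 and 145 against 138 and 137 FPKM), whereas those of Obox3 and Crxos did (101 and 79.8 against 90.0 and 81.3). Obox6 and Crxos led in the columns headed TSA, Sirt1 and 4-cell control. In each of these 3 columns the libraries of Obox6 lay above those of Crxos without overlap. Obox1, Obox2, Obox5 and Obox7 made up 99.7% of the members' summed FPKM in early 2-cell embryos and 78.2% in late 2-cell control. Their share was 74.4% with FK866 and 86.3% with FK866+NMN. In the columns headed TSA, Sirt1 and 4-cell control they made up 1.46%, 4.34% and 8.39%, and in the columns headed 4-cell FK866 and FK866+NMN 92.9% and 64.4%. In RNA from whole embryos, fewer cells that hold a transcript and less of it per cell cannot be told apart.

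From early to late 2-cell control, Obox6, Crxos and Obox3 were higher and Obox7, Obox2 and Obox1 lower, while Obox5 differed little. Genes were called here past a 2-fold difference of the column values with a pseudocount of 1 FPKM added, without a test. The log2 differences were 5.58 for Obox6, 5.10 for Crxos, 3.81 for Obox3, -3.64 for Obox7, -2.30 for Obox2, -2.26 for Obox1 and -0.17 for Obox5. The early libraries of Obox1, Obox2 and Obox5 could not be told apart. Over the splits, an early library was at 660 FPKM or more for Obox1, above both late controls. For Obox2 it could be as low as 40.8, under both, and for Obox5 it could lie anywhere from 274 to 1388. So 3 of 7 members were called higher and 3 lower, beside 32.2% and 31.7% of the 9514 genes expressed. A test was possible for genes whose libraries could be separated in all 7 columns, by limma on log2(FPKM + 1), two-sided, with Benjamini-Hochberg adjustment over 9903 genes, of which 17.5% passed 0.05. Obox6 rose by 6.08 (SE 0.693, adjusted p = 0.000266), Crxos by 5.19 (SE 1.02, adjusted p = 0.0057) and Obox3 by 3.98 (SE 0.996, adjusted p = 0.0198) on the log2 scale by limma. For Obox7 the difference of -3.65 (SE 1.23) missed the threshold in that limma fit (adjusted p = 0.0658), although both early libraries were over 10-fold above both late ones. Nothing in the labels says whether the pools of a group came from separate matings, so these p-values measure only the spread between the libraries.

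Single libraries and columns weighed on these calls. Without early 2-cell library B the adjusted p by limma was 0.164 for Obox3 and 0.0565 for Crxos, and without late 2-cell control library A or B it was 0.0948 or 0.0662 for Obox3. Obox6 passed in each of these fits. With the FK866+NMN column left out of the fit, Obox7 passed, with an adjusted p of 0.00711 by limma, in a range of 0.00708 to 0.269 over the settings tried.

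Other stage markers differed between the same columns. The summed FPKM of 14 oocyte and maternal transcripts was 1144 and 1372 in the early libraries and 415 and 412 in the late control. Of 18 such genes expressed, 9 were called lower and 0 higher. Of 14 other regulators of zygotic gene activation, 9 were called higher and 1, Duxf3, lower (2.26 and 0.589 FPKM). Zscan4c stood at 25.6 and 87.1 FPKM per library and Zscan4d at 29.6 and 125, while Klf17 (459 and 430) and Nr5a2 (9.66 and 19.0) were not called. Zfp352, a transcript of the 2-cell stage, was at 42.6 and 65.1 FPKM.

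By the column values, FK866 left the members within 2-fold of the control in late 2-cell embryos. Obox6 was higher by 0.86 on the log2 scale, with both FK866 libraries (353 and 249 FPKM) above both controls (185 and 145). Crxos was at -0.98, with both FK866 libraries (65.7 and 20.3) under both controls (90.0 and 81.3). Obox2 was higher by 0.34 without overlap of the libraries, and the libraries of Obox1 (-0.078), Obox3 (-0.082), Obox5 (-0.0035) and Obox7 (0.18) overlapped. Thus 0 of 7 members were called, beside 18.1% higher and 20.0% lower of all genes expressed. In limma 0 of the 4 members tested passed, with an adjusted p of 0.752 for Obox6 and 0.762 for Crxos. The limma estimate was 0.85 (SE 0.693) for Obox6 and -1.20 (SE 1.02) for Crxos, which is past 2-fold. None of these 4 had an unadjusted p under 0.05 in that fit, although Obox6 did in a limma fit on the columns compared alone (unadjusted p = 0.0279, adjusted p = 0.426). Of all genes 0.454% passed the adjusted threshold and 859 of 9903 the unadjusted one. Leaving out any of the 4 libraries brought either Obox6 or Crxos past 2-fold. Of 14 other regulators of zygotic gene activation 0 were called higher and 1 lower. Duxf3 was among those not called, at 2.12 FPKM per library with FK866 and 0.589 in the control. That is 0.97 on the log2 scale with the pseudocount, and a ratio of 3.59 without it. The study reports Dux (Duxf3) as raised by FK866 at this stage, also by qPCR and immunostaining. Of 18 oocyte and maternal transcripts 2 were called higher and 4 lower. Among the rows with Obox pseudogene symbols that were expressed, 6 of 8 Obox4-ps rows were called lower and 1 higher, and 3 of 7 Obox3-ps rows were lower and 0 higher.

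NMN added to FK866 at the late 2-cell stage gave 1 called member, Obox1, at 1.03 on the log2 scale, and its libraries overlapped (1013 and 192 against 334 and 255 FPKM). Of all genes expressed, 18.9% were called higher and 33.3% lower. Obox6 was at -0.73, with both FK866+NMN libraries (125 and 238) under both FK866 libraries (353 and 249). The libraries of Obox2 (0.19), Obox3 (-0.18), Obox7 (0.78) and Crxos (0.081) overlapped, and Obox5 stood at 0.47. In limma 0 of 4 members tested passed, with an adjusted p of 0.618 for Obox6, and 2.68% of all genes did. None of the 4 had an unadjusted p under 0.05 in that fit, beside 1508 of all 9903 genes. Its estimates were -0.48 (SE 1.23) for Obox7, -0.63 (SE 1.02) for Crxos, -0.69 (SE 0.996) for Obox3 and -0.78 (SE 0.693) for Obox6. Those of Obox7 and Crxos thus had the opposite sign to the differences of the column values.

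The 2 libraries of late 2-cell FK866+NMN disagreed on most members. Library A had 25.0 times the Obox7 level of library B, 5.28 times the Obox1 level and 2.48 times the Obox2 level. Library B had 14.5 times the Crxos level of A, 8.20 times the Obox3 level and 1.91 times the Obox6 level. Library A lay between the early 2-cell and the late 2-cell control libraries for Obox3, Obox7 and Crxos, whereas B was above both control libraries for Obox3, between them for Crxos and under both for Obox7. The summed FPKM of 14 oocyte and maternal transcripts was 513 in A and 339 in B, and that of 12 2-cell transcripts was 247 and 419. Without library A the Obox1 difference from FK866 was -0.61, and without library B, 5 members were past 2-fold (Obox1 and Obox7 higher, Obox3, Obox6 and Crxos lower). How far a difference in stage between the libraries enters these values was not tested.

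**Figure D2:**
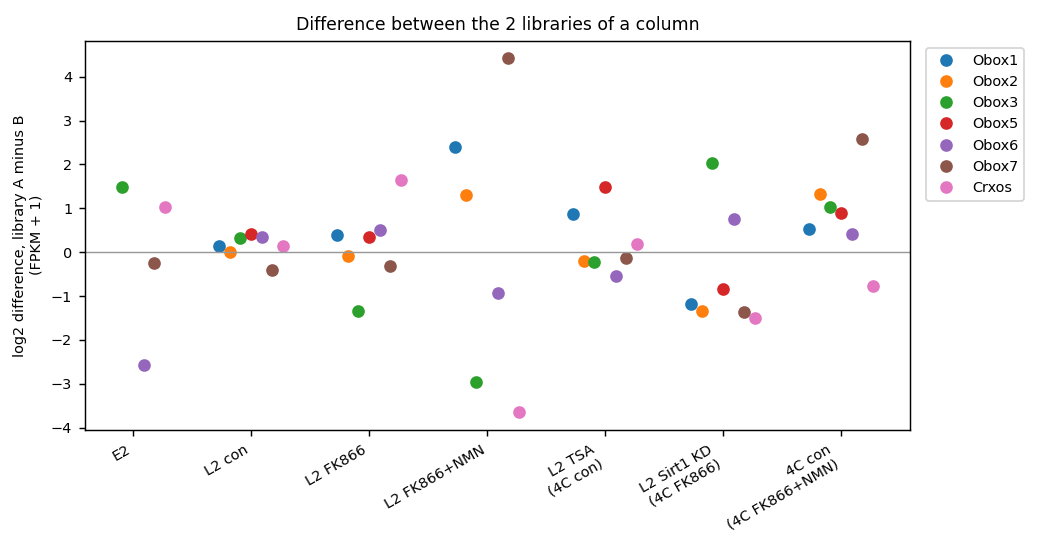
Log2 difference between library A and library B of the same column (vertical axis, FPKM + 1) for each of the 7 genes in the 7 columns that hold 2 libraries, with a point only where the libraries could be told apart. In late 2-cell FK866+NMN, Obox7 and Obox1 are above 0 and Crxos and Obox3 far below, whereas all members of late 2-cell control are near 0.

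In the column headed TSA the 4 maternal genes and Obox3 were far below the late 2-cell control, and Obox6 and Crxos above it. The log2 differences were -7.24 for Obox5, -6.87 for Obox1, -5.20 for Obox7, -4.97 for Obox2 and -4.46 for Obox3, with 1.17 for Obox6 and 1.45 for Crxos. For none of the 7 did the libraries overlap, but the share of all genes without overlap was not computed. So 5 of 7 members were called lower and 2 higher, beside 41.3% and 23.2% of the genes expressed, and the median was -4.97 beside -0.44 over all genes. Obox7 had 623 reads in the control and 1 in this column. With the reads of the libraries pooled and scaled to total reads, the ratio was 780. Its exact 95% counting interval of 139 to 30859 leaves out the spread between libraries. In limma Obox3 (-4.45, adjusted p = 0.0145) and Obox7 (-5.19, adjusted p = 0.0189) fell, where 13.6% of all genes passed. Obox6 (1.15, adjusted p = 0.333) and Crxos (1.45, adjusted p = 0.408) did not pass in limma. When limma was run on the genes whose libraries could be separated in the pair of columns, a choice made after seeing the data, Obox5 fell (-7.41, SE 0.572, adjusted p = 0.000318), as did Obox1 (-6.93, SE 0.731, adjusted p = 0.000572) and Obox2 (-4.98, SE 0.624, adjusted p = 0.00122), where 14.3% of all genes passed. Over the other settings the adjusted p of these 3 genes by limma ran from 0.00016 for Obox1 to 0.0142 for Obox2 and Obox5. No limma fit with a library left out held these 3 genes, so that check was not made for them. With any of the 4 libraries left out, neither Obox3 (0.0582 to 0.0847) nor Obox7 (0.0658 to 0.0967) passed in limma. The oocyte and maternal list was low in this column too, since its summed FPKM was 49.9 and 70.0 per library against 415 and 412 in the control, and 15 of 17 genes were called lower and 1 higher.

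By the tables this column is the 4-cell control, and TSA is the single library headed 4-cell FK866. That library had 2 members within 2-fold of the late 2-cell control, Obox2 at -0.052 and Obox1 at -0.55 on the log2 scale. The other 5 were lower, Obox6 at -4.77, Obox3 at -2.91, Obox7 at -2.58, Obox5 at -1.65 and Crxos at -1.57. The calls were 0 higher and 5 lower, beside 30.1% and 29.7% of all genes. With 1 library on this side, the difference has no replicate check. Obox6 and Crxos thus lay above the control by the header and below it by the tables. Of 13 other regulators of zygotic gene activation expressed, 10 were called lower and 0 higher, while of 17 oocyte and maternal transcripts 2 were lower and 4 higher. The blood genes summed to 212 FPKM in this library, 130 of them Hba-a1, a globin gene, and to 23.5 and 27.4 in the control. The part of blood RNA in these differences was not tested.

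**Figure D3:**
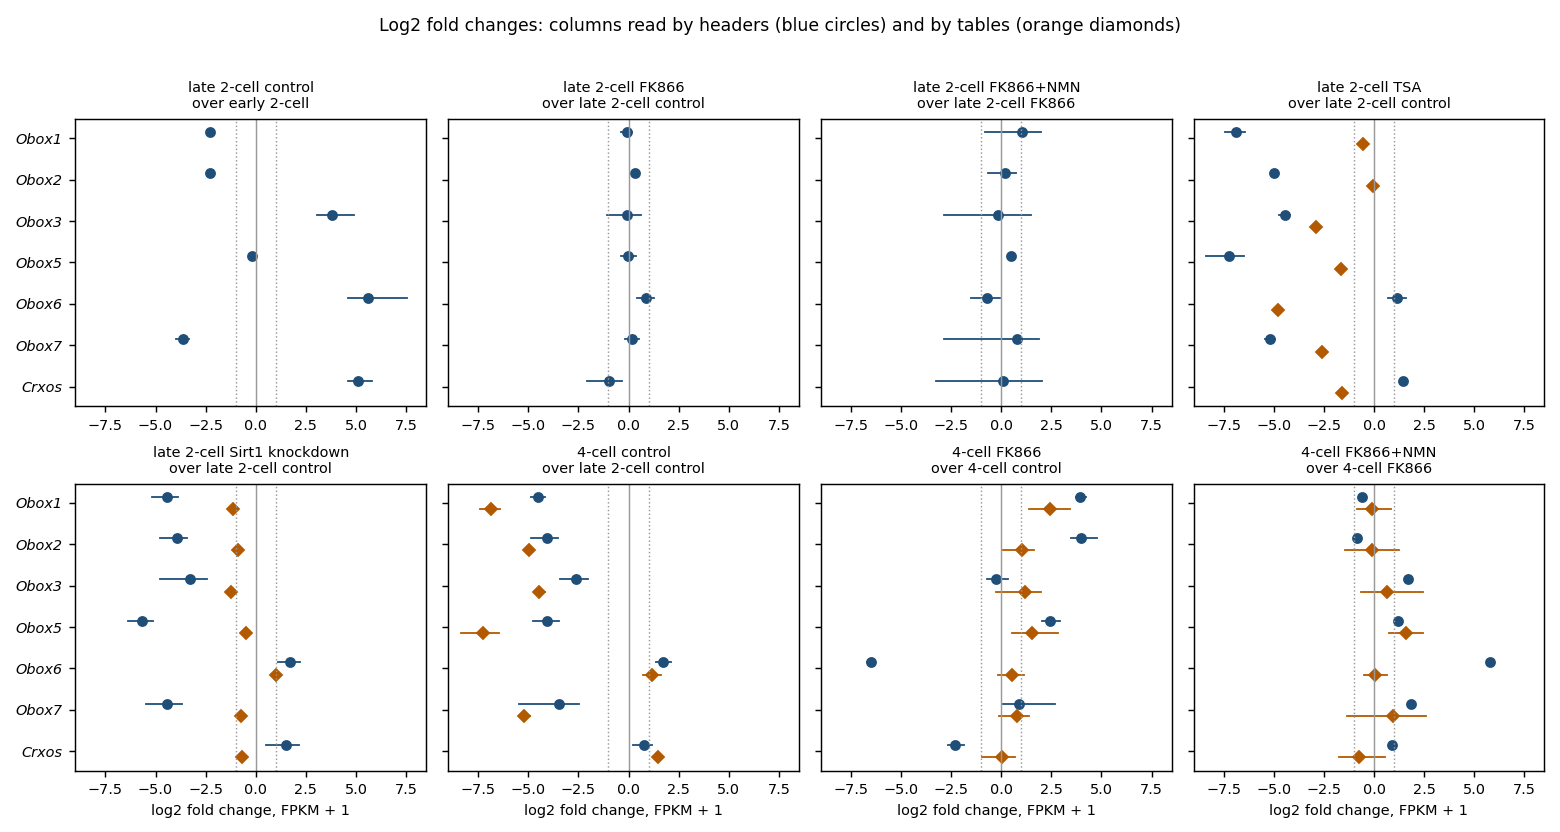
Log2 fold change of each of the 7 genes (horizontal axis, FPKM + 1) in the 8 comparisons, with blue circles for columns read by their headers, orange diamonds for columns read by the tables, and bars from the lowest to the highest difference between single libraries where they could be told apart. Dotted lines mark a 2-fold difference, and Obox6 lies on opposite sides of 0 in the readings of TSA and of 4-cell FK866.

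Sirt1 itself, a NAD+-dependent deacetylase and the target of the knockdown, was at 32.4 and 73.1 FPKM in the column headed Sirt1 and at 86.6 and 66.2 in the late 2-cell control, so the libraries overlapped. In the single library that is the knockdown by the tables it was at 11.3 FPKM. The knockdown also acts on the protein, which these data do not show. The library headed 4-cell FK866 had 7.61 FPKM and the early 2-cell libraries 13.5 and 6.18, so a low Sirt1 level was not particular to the library of the knockdown by the tables.

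In the column headed Sirt1 the 4 maternal genes and Obox3 were below the late 2-cell control and Obox6 and Crxos above it. The log2 differences from the late 2-cell control were -5.69 for Obox5, -4.43 for Obox7, -4.42 for Obox1, -3.95 for Obox2 and -3.29 for Obox3, with 1.69 for Obox6 and 1.50 for Crxos. No libraries overlapped, but the share of all genes without overlap was not computed. The calls were 5 lower and 2 higher, beside 36.6% and 24.3% of all genes. All 8 reads of Obox7 were in library B, and its difference was -5.27 without B and -3.90 without A. In limma, Obox7 (-4.57, adjusted p = 0.0397) and Obox3 (-3.61, adjusted p = 0.0441) fell, where 10.6% of all genes passed, and Obox6 missed it at 1.65 (adjusted p = 0.172), as did Crxos at 1.31 (adjusted p = 0.476). With genes separable in the pair of columns, Obox5 (-5.73, adjusted p = 0.00128), Obox2 (-4.10, adjusted p = 0.00427) and Obox1 (-4.54, adjusted p = 0.00533) fell in limma, where 11.4% passed. None of these genes was in a limma fit with a library left out. Neither Obox3 nor Obox7 passed in limma with any 1 of the 4 libraries left out (adjusted p from 0.0565 to 0.244 for Obox3 and from 0.0842 to 0.205 for Obox7). With a pseudocount of 0.1 or with no filter on low values, neither passed either, and with a pseudocount of 5 Obox7 did not pass (adjusted p = 0.0682) while Obox6 did (adjusted p = 0.0407) in limma. The oocyte and maternal list was at 154 and 74.3 FPKM in all, with 14 of 17 genes called lower and 0 higher.

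By the tables this column is 4-cell FK866, and the knockdown is the single library headed 4-cell FK866+NMN. Its members stood much nearer to the late 2-cell control. Obox6 was at 1.01, Obox3 at -1.23 and Obox1 at -1.15 on the log2 scale. Obox2 (-0.90), Obox7 (-0.74), Crxos (-0.69) and Obox5 (-0.48) were within 2-fold. Thus 1 of 7 members was called higher and 2 lower, beside 16.4% and 28.2% of all genes, without a replicate check. Crxos was on opposite sides of the control in the readings. Of 17 oocyte and maternal transcripts 1 was called higher and 6 lower.

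From late 2-cell to 4-cell control by the headers, the maternal genes and Obox3 were lower and Obox6 higher. The log2 differences were -4.50 for Obox1, -4.08 for Obox5, -4.05 for Obox2, -3.46 for Obox7, -2.64 for Obox3, 1.74 for Obox6 and 0.75 for Crxos. The calls were 5 lower and 1 higher, beside 33.8% and 24.2% of all genes. No libraries overlapped, but the share of all genes without overlap was not computed. All 44 reads of Obox7 were in library A, and its difference was -5.27 without A and -2.68 without B. In limma 0 of the 4 members tested passed, where 8.19% of all genes did. The adjusted p by limma was 0.0786 for Obox7, 0.135 for Obox3, 0.168 for Obox6 and 0.763 for Crxos. An unadjusted p under 0.05 was found in limma for 3 of the 4, beside 2223 of all 9903 genes. Without the FK866+NMN column, Obox7 (adjusted p = 0.0102) and Obox3 (adjusted p = 0.0463) passed in limma, in ranges of 0.00999 to 0.437 and 0.0236 to 0.492 over all settings. With genes separable in the pair of columns, Obox2 (-4.19) and Obox5 (-4.13) fell in limma (adjusted p = 0.00584 for both), as did Obox1 (-4.53, adjusted p = 0.00746), where 8.95% passed. None of these genes was in a limma fit with a library left out. By the tables this comparison is that of the column headed TSA with the same control, with the values given there for the 7 members, 41.3% and 23.2% of all genes called lower and higher and 13.6% passing limma. In both readings Obox1, Obox2, Obox3, Obox5 and Obox7 were over 2-fold lower and Obox6 over 2-fold higher in 4-cell than in late 2-cell control embryos. The comparisons of TSA, the knockdown and the 4-cell control share the late 2-cell control libraries.

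In the library headed 4-cell FK866, against the column headed 4-cell control, Obox2 was higher by 3.99, Obox1 by 3.95 and Obox5 by 2.43 on the log2 scale, and Obox6 was at -6.52 and Crxos at -2.33. Obox7 (0.88) and Obox3 (-0.27) were within 2-fold. The calls were 3 higher and 2 lower, beside 41.8% and 32.9% of all genes, without a replicate check on the FK866 side. In the same comparison 13 of 17 oocyte and maternal transcripts were called higher and 2 lower, and the blood genes summed to 212 FPKM against 3.89 and 2.12 in the control libraries. The part of these in the members' differences was not tested. By the tables, where both groups have 2 libraries, Obox1 was higher by 2.45 (7.89 and 19.3 against 2.46 and 0.887 FPKM), Obox5 by 1.56 (9.36 and 17.4 against 6.21 and 1.58), Obox3 by 1.17 and Obox2 by 1.02, and the libraries of Obox3 overlapped. Obox6 (0.52) and Crxos (0.050) were within 2-fold with overlap, and the column values of Obox7, divided by the number of libraries, were under 1 FPKM in both groups. Thus 4 of the 6 members at 1 FPKM or more were called higher and 0 lower, beside 21.2% and 13.4% of all genes. The limma estimates of Obox3 (0.84) and, in a fit on the columns compared alone, of Obox2 (0.88) were within 2-fold. In limma 0 of the 4 members tested passed, at an adjusted p of 1 for each and no unadjusted p under 0.05, where 0.131% of all genes did. With genes separable in the pair of columns Obox1 stood at 2.39 (SE 0.731, unadjusted p = 0.00899, adjusted p = 0.441 in limma), in a range of 0.129 to 0.538 over its settings, and Obox5 at 1.68 (adjusted p = 0.571). The oocyte and maternal transcripts had 10 of 14 called higher and 1 lower in that reading, and the other regulators of zygotic gene activation 7 of 13 higher and 0 lower.

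With NMN added to FK866 at the 4-cell stage, the headers set 1 library against 1. Obox6 was higher by 5.78 (334 and 5.08 FPKM), Obox7 by 1.84, Obox3 by 1.68 and Obox5 by 1.17 on the log2 scale, and Crxos (0.88), Obox1 (-0.59) and Obox2 (-0.85) were within 2-fold. The calls were 4 higher and 0 lower, beside 25.0% and 34.7% of all genes. By the tables only Obox5 was called, higher by 1.60 with no overlap (55.8 and 29.7 against 9.36 and 17.4 FPKM), and the libraries of the other 6 overlapped, with differences from -0.75 for Crxos to 0.97 for Obox7. That is 1 of 7 higher and 0 lower, beside 14.8% and 11.5% of all genes. Of the 4 members tested in limma 0 passed, at an adjusted p of 1 for each and no unadjusted p under 0.05, where 0.0808% of all genes passed. Obox5, tested among genes separable in the pair, had an unadjusted p of 0.0222 and an adjusted p of 1 in limma.

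The 36 other rows with an Obox symbol were 7 Obox3-ps and 28 Obox4-ps rows, which are pseudogenes by their symbols, and Obox8. Obox8 was low where Obox6 was low, with 0.456 FPKM per library in early 2-cell embryos, 246 in late 2-cell control, 188 with FK866 and 156 with FK866+NMN. It stood at 630, 797 and 629 FPKM in the columns headed TSA, Sirt1 and 4-cell control, and at 0 and 199 in those headed 4-cell FK866 and FK866+NMN. The Obox3-ps rows were highest, as Obox3 was, in late 2-cell control. Their sum was 44.4 FPKM in early 2-cell embryos, 421 in late 2-cell control, 311 with FK866 and 230 with FK866+NMN, then 25.5, 29.1, 64.1, 11.9 and 200 in the columns headed TSA, Sirt1, 4-cell control, 4-cell FK866 and 4-cell FK866+NMN. From early 2-cell to late 2-cell control, 7 of 7 were called higher. The Obox4-ps rows summed to 229 FPKM in early 2-cell embryos and 38.2 in late 2-cell control, with 21 of the 24 expressed rows called lower and 2 higher. Their sum was 37.5 with FK866, of which 32.4 came from Obox4-ps35 (12.0 in the control), and 44.8 with FK866+NMN, where 8 of 10 expressed rows were called higher than with FK866 and 1 lower. It was 3.60, 9.41, 11.1, 116 and 33.9 in the other columns in the same order. How reads shared between such rows were counted is not given in the sources used here.

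**Figure D4:**
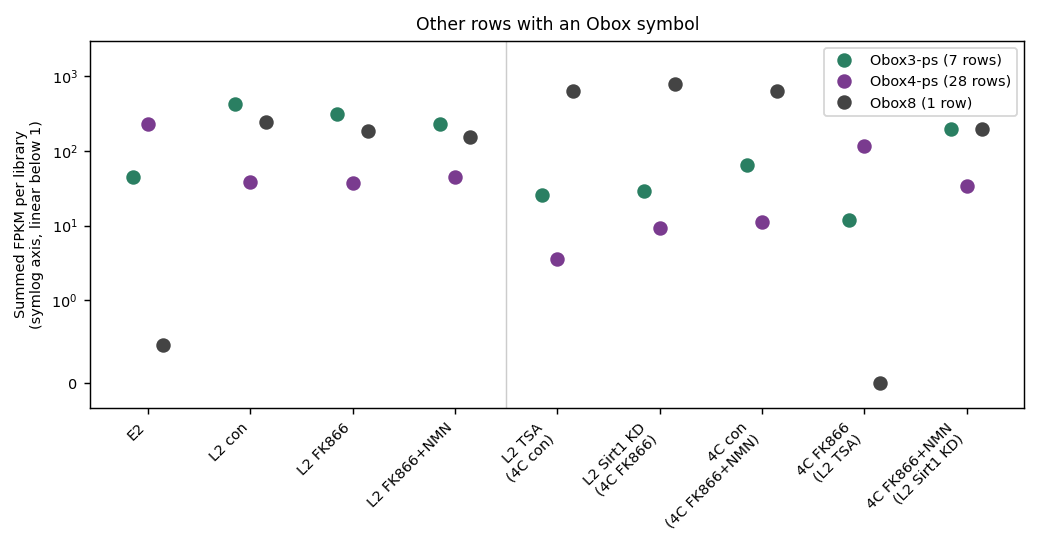
Summed FPKM per library (vertical axis, logarithmic above 1 and linear below) of the 7 Obox3-ps rows, the 28 Obox4-ps rows and Obox8 in the 9 columns, in the order and with the labels of the plot of members by library. Obox8 is at 0.456 in early 2-cell embryos and 0 in the column headed 4-cell FK866 and above 150 elsewhere, and the Obox4-ps sum is largest in early 2-cell embryos.

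Likeness to other genes was measured as Pearson's r of log2(FPKM + 1) over the 9 columns among 8071 genes, as a description, since the columns share stage and library. Among the members, r was 0.989 between Obox1 and Obox2, which share sequence, 0.955 between Obox1 and Obox5 and 0.933 between Obox1 and Obox7. It was 0.844 between Obox6 and Crxos and -0.820 between Obox1 and Crxos. Obox3 stood between these groups, with r = 0.709 to Obox5, 0.280 to Obox6 and 0.010 to Crxos. The genes most like Obox1 were Obox2, Gyg (0.987) and Hoxa7 (0.987), and those most like Obox2 were 3110009E18Rik (0.992), Gyg (0.992) and Zc3h6 (0.990). Obox5 was near to Mgst3 (0.988) and Bcl2l10 (0.987), and Obox7 to Nlrp9b (0.986), Jag1 (0.979) and Fat1 (0.976). Bcl2l10 and Nlrp9b are known as oocyte transcripts. Obox6 was nearest to Rprd1b (0.992), Pramel33 (0.990) and Pramel42 (0.987), Obox3 to Gm8708 (0.966), Dut (0.963) and Obox3-ps3 (0.963), and Crxos was near to Set (0.995) and to Rplp2 (0.993), a ribosomal protein gene. Crx, the neighbour of Crxos on the opposite strand, was at 0 to 3.86 FPKM per library in the 9 columns.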

How the data were processed

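The labels list 42 samples, 18 of RNA in 9 groups and 24 of H3K27ac CUT&Tag, which were not analysed here. Per the labels and the study's methods, the authors used Trim Galore for trimming, HISAT2 for alignment (build mm10), featureCounts for counting and DESeq2 for their own comparisons, and deposited FPKM values in 1 column per group. The deposited table holds 15747 complete rows with 10 significant digits, and 0 columns of other samples. Each column was separated into libraries from the whole reads that its FPKM values allow, with GENCODE M21 exon lengths. Of the values above 0, 97.0% to 97.78% had exactly 1 solution per column, and values with several stayed unseparated. Fold changes used column values per library with a pseudocount of 1 FPKM, at least 1 FPKM in either column, and a 2-fold threshold, without a test. Since FPKM are not counts, libraries were tested with limma 3.58.1 (R 4.3.3, empirical Bayes with trend) on log2(FPKM + 1) at an adjusted p of 0.05, two-sided. The scripts were tested on simulated data. Other steps ran in Python 3.11.15 with pandas 2.3.3, scipy 1.17.1, numpy 2.4.6 and, for plots, matplotlib 3.10.9. The members and gene lists were chosen with earlier results of these data known. Named genes were all 7 members, other Obox rows, the 3 genes nearest each member among those at 5 FPKM or more in a column (some are not reported here), 6 regulators or targets of zygotic gene activation, Crx and Sirt1, and Hba-a1 and Gapdhs were named as the highest genes of their lists. Groups follow the column headers, with the study's tables as the other reading. Alternatives were the pseudocount, filter, centring, trend, samples in the fit and each library left out. Fits on genes separable in the pair of columns and without late 2-cell FK866+NMN were added after seeing the data.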

Additional observations from a re-analysis of the deposited data

Results flagged for a closer look

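By the column headers, the Obox6 differences under the same contrast had opposite signs at the late 2-cell and 4-cell stages. With FK866 it was 0.86 above the control at the late 2-cell stage and -6.52 from it at the 4-cell stage (log2, FPKM + 1). With NMN added to FK866 it was at -0.73 at the late 2-cell stage and 5.78 at the 4-cell stage. A member was flagged only if its signs were opposite and its libraries did not overlap at either stage. The lack of overlap was thus part of the choice and is not a result. With FK866 at 4-cell, 1 library stands against 2. With NMN at 4-cell, 1 library stands against 1, so overlap was not possible and its absence says nothing. The late 2-cell differences were within 2-fold and did not pass in limma (adjusted p = 0.752 and 0.618). Both 4-cell columns headed FK866 or FK866+NMN hold 1 library, and the difference between stages was not tested in this reading. By the tables both 4-cell groups have 2 libraries. The FK866 effect on Obox6 at 4-cell minus that at late 2-cell was then -0.35 (SE 0.98, limma adjusted p = 0.968) and that of NMN was 0.87 (SE 0.98, limma adjusted p = 0.785). In that reading the largest difference of the FK866 effect between stages among the members was that of Obox1, 2.48 (SE 1.03, limma adjusted p = 0.579), and 0 of 9987 genes passed.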

How the results depend on the processing

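No paired analysis was possible because the columns are sums whose separated libraries carry no replicate number. Of 185 recomputed counts of members, 146 stayed within 1.5 times the main count. Read by the tables, 3 members instead of 7 were past 2-fold for the knockdown and 1 instead of 4 for NMN at 4-cell, and signs turned for Obox6 (-4.77) and Crxos (-1.57) under TSA, Crxos (-0.69) in the knockdown, and Obox6 (0.52) and Crxos (0.050) under FK866 at 4-cell. Differences within 2-fold by headers that changed sign were Obox3 under FK866 at 4-cell (-0.27 to 1.17) and Crxos with NMN at 4-cell (0.88 to -0.75). For NMN at late 2-cell, centring on all genes gave 2 past 2-fold instead of 1, leaving out single libraries gave 0 to 5, and Obox1 ran from -0.61 (without FK866+NMN library A) to 1.78 (without B). For FK866 at late 2-cell, leaving out single libraries gave 1 instead of 0 each time. In limma, leaving out single libraries gave 1 to 3 members for late against early 2-cell, and 0 instead of 2 for TSA, the knockdown and, by the tables, the 4-cell control. A fit on the columns compared alone gave 6 for each of these and 6 for the 4-cell control by headers, and genes separable in the pair gave 5, 5, 5 and 3, or 5 each when FK866+NMN was also left out. For the knockdown a pseudocount of 0.1 or no filter gave 0, and a pseudocount of 5 gave 2 with Obox6 in place of Obox7. For the 4-cell control by headers, where 0 passed, a pseudocount of 5 gave 1 and leaving out FK866+NMN gave 2. The cause of these changes was not tested, except that the fits on the columns compared alone or on genes separable in the pair test 7 members instead of 4. Beside the maternal genes and Obox3, the columns alone gave Crxos for TSA and Obox6 for the knockdown and the 4-cell control by headers. Where leaving out a library left 1 in a group, the remaining library was assumed to vary like the others. The limma fits with a library left out did not hold Obox1, Obox2 or Obox5.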
